A study of Homo sapiens with 9 samples.

Results

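The p21-activated kinases (PAKs) are serine/threonine kinases, and 5 of the 763 genes targeted in a kinome-wide CRISPR/Cas9 knockout screen are described here by name: PAK1, PAK2, PAK3, PAK4 and PAK6. Each was targeted by 4 single guide RNAs (sgRNAs), so that 20 of the 3152 sgRNAs of the library were concerned. The set was chosen with results of the screen known, because PAK2 sgRNAs were far scarcer after 10 days with vehicle than at baseline while those of its paralogues were not. For the 5 genes, vehicle against baseline is therefore a description and no test of them, as is pralatrexate against baseline, which uses the same baseline libraries. Pralatrexate against vehicle is given with a test, and it shares the vehicle libraries with the contrast that led to the choice. PAK7, named PAK5 in current annotation, is the remaining PAK gene of the library and is set beside the others as a non-member.

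The screen was run in RH4, 1 human fusion-positive rhabdomyosarcoma line that carries the PAX3::FOXO1 oncofusion, so every group shared that genotype and the Brunello kinome library. Per the labels, infection was at a coverage of 1000, puromycin at 0.25 µg/ml was started 48 h later and kept for 72 h, and part of the cells were then taken as baseline. The other cells recovered for 72 h and then grew for 10 days in 1.5 nM pralatrexate, an antifolate, or in vehicle. Pralatrexate, vehicle and baseline had 3 libraries each, of 2468136 to 4227230, 3194504 to 4602712 and 3483100 to 4431337 reads. The libraries are numbered as repeats in the labels. The study calls them technical replicates in one place and describes parallel infected cultures in another, so p-values measured how far these libraries varied, and part of that variation may be technical only. The selection before baseline is described as longer in one place of the study than in its methods, and the time between baseline and day 10 is uncertain to that extent. What was sequenced was the sgRNA cassette in genomic DNA, so the values follow the share of cells that carried each sgRNA, and no PAK transcript or protein level was measured.

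PAKs bind the active, GTP-loaded forms of the small GTPases Rac and Cdc42 and pass their signal on to the cytoskeleton, to cell adhesion and to growth pathways. Group I (PAK1, PAK2 and PAK3) is held inactive by an autoinhibitory domain that GTPase binding releases, whereas group II (PAK4, PAK5 and PAK6) is regulated differently. PAK2 is expressed in most tissues, PAK1 and PAK3 are best known from brain and muscle or from neurons, PAK4 is widely expressed, and PAK6 was first described as a partner of the androgen receptor.

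The 5 genes lie on 5 chromosomes. On GRCh38 with GENCODE v44, PAK2 spans chr3:196739857-196832647 on the + strand, PAK1 chr11:77322017-77474635 on the − strand, PAK3 chrX:110944285-111227361 on the + strand, PAK4 chr19:39125770-39182816 on the + strand and PAK6 chr15:40217428-40277487 on the + strand. The PAK6 span overlaps the protein-coding gene BUB1B and the readthrough gene BUB1B-PAK6. The canonical transcripts have 14 coding exons in PAK1, PAK2 and PAK3 and 8 in PAK4 and PAK6. The coding sequence of PAK2 was 74.5% identical to that of PAK1 over 1563 aligned bases and 72.7% identical to that of PAK3 over 1554, against 54.2% for PAK4 and 58.1% for PAK6. The guide sequences of the library were not part of the files used here, so the cut sites within these genes are not placed.

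Sites identical between paralogues were sought in the reference. Mismatched sites were not, so how far Cas9 could tell these genes apart was not tested. Every stretch of 20 bases followed by NGG within a coding exon was listed. PAK2 held 137 such sites and shared 1 with PAK1 and 0 with PAK3, PAK4 or PAK6, and the only other site shared within the 5 genes was between PAK4 and PAK6. These are shown because a guide at either place would match 2 of the genes, with the NGG in capitals:
PAK1 and PAK2: acctctggtgccatccagtaTGG
PAK4, with the same 20 bases in PAK6: aagattggcgagggctccacGGG
PAK6, with the same 20 bases in PAK4: aagattggcgagggctccacCGG
The first lies in coding exon 12 of both genes, at chr11:77336195-77336217 on the + strand in PAK1 and chr3:196820436-196820458 on the − strand in PAK2. The others lie in coding exon 3, at chr19:39173888-39173910 in PAK4 and chr15:40272599-40272621 in PAK6, both on the + strand.

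PAK2 also differed from its paralogues in how often its sites recurred in the genome. Of the 137 sites in PAK2, 92 (67.2%) occurred once in the assembled chromosomes, against 171 of 173 in PAK1, 150 of 150 in PAK3, 378 of 384 in PAK4 and 409 of 410 in PAK6. Of the other 45 sites in PAK2, 44 recurred on chromosome 15 between 21293672 and 21295130, in the processed pseudogene ENSG00000237161, and 1 was the site shared with PAK1. Recurring sites were found in 13 of the 14 coding exons, and the remaining one, coding exon 4, held 0 sites of any kind. Whether any of the 4 PAK2 sgRNAs matched the pseudogene was not tested, since their sequences were not at hand.

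PAK2 sgRNAs were far less abundant at day 10 than at baseline, in both arms. As the sum over the 4 sgRNAs of CPM (reads of each sgRNA scaled to a common library total), PAK2 stood at 485, 428 and 439 in the pralatrexate libraries, 461, 338 and 390 in the vehicle libraries and 1279, 1217 and 1218 in the baseline libraries. Every day 10 library lay below every baseline library, and the 2 arms of day 10 overlapped. Means were 450 ± 30.2 with pralatrexate, 396 ± 61.6 with vehicle and 1238 ± 35.6 at baseline (SD, n = 3 each). The fitted log2 fold change of vehicle over baseline was −1.65 (SE 0.10), or 0.319 of baseline, and PAK2 stood at place 13 of 763 from the lowest. For pralatrexate over baseline it was −1.46 (SE 0.10), or 0.364 of baseline, at place 24.

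No paralogue was lower at day 10 to the extent of PAK2. PAK1, the other widely studied group I kinase, stood at 1349, 1365 and 1406 summed CPM with pralatrexate, 1250, 1246 and 1316 with vehicle and 1306, 1254 and 1243 at baseline. PAK3, the group I member best known from neurons, stood at 1619, 2004 and 1674 with pralatrexate, 1449, 1828 and 1683 with vehicle and 1369, 1367 and 1390 at baseline. PAK3 was thus above baseline in all 6 day 10 libraries, with pralatrexate 2 the highest, while PAK1 overlapped baseline with vehicle and lay above it with pralatrexate. The fitted log2 changes of vehicle over baseline were 0.00 (SE 0.07) for PAK1 and 0.27 (SE 0.07) for PAK3, and those of pralatrexate over baseline were 0.12 (SE 0.07) and 0.36 (SE 0.07).

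Of group II, PAK4 and PAK6 averaged slightly below baseline, whereas the non-member PAK7 (PAK5) averaged above it. PAK4 stood at 1403, 1374 and 1499 summed CPM with pralatrexate, 1579, 1401 and 1543 with vehicle and 1569, 1621 and 1577 at baseline. PAK6 stood at 889, 995 and 981 with pralatrexate, 970, 920 and 939 with vehicle and 1041, 1134 and 993 at baseline. PAK6 vehicle libraries all lay below the baseline libraries and its pralatrexate libraries reached into them, and PAK4 showed the opposite arrangement. The fitted changes of vehicle over baseline were −0.08 (SE 0.07) for PAK4 and −0.16 (SE 0.08) for PAK6. The non-member PAK7 averaged 1620 ± 217 with pralatrexate, 1565 ± 83.1 with vehicle and 1442 ± 44.4 at baseline (SD, n = 3 each), a fitted change of vehicle over baseline of 0.12 (SE 0.07).

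The single sgRNAs of the paralogues lay between −0.43 and 0.40 in vehicle over baseline. In the order of sgRNAs 1 to 4 the log2 changes were −0.10, −0.03, 0.21 and −0.06 for PAK1 and −0.01, 0.40, 0.17 and 0.28 for PAK3. They were −0.20, 0.25, −0.25 and −0.28 for PAK4 and −0.20, −0.43, −0.09 and 0.05 for PAK6. Within PAK4 3 of 4 sgRNAs were below 0 and sgRNA 2 above, and within PAK3 only sgRNA 1 was not above 0.

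**Figure D1:**
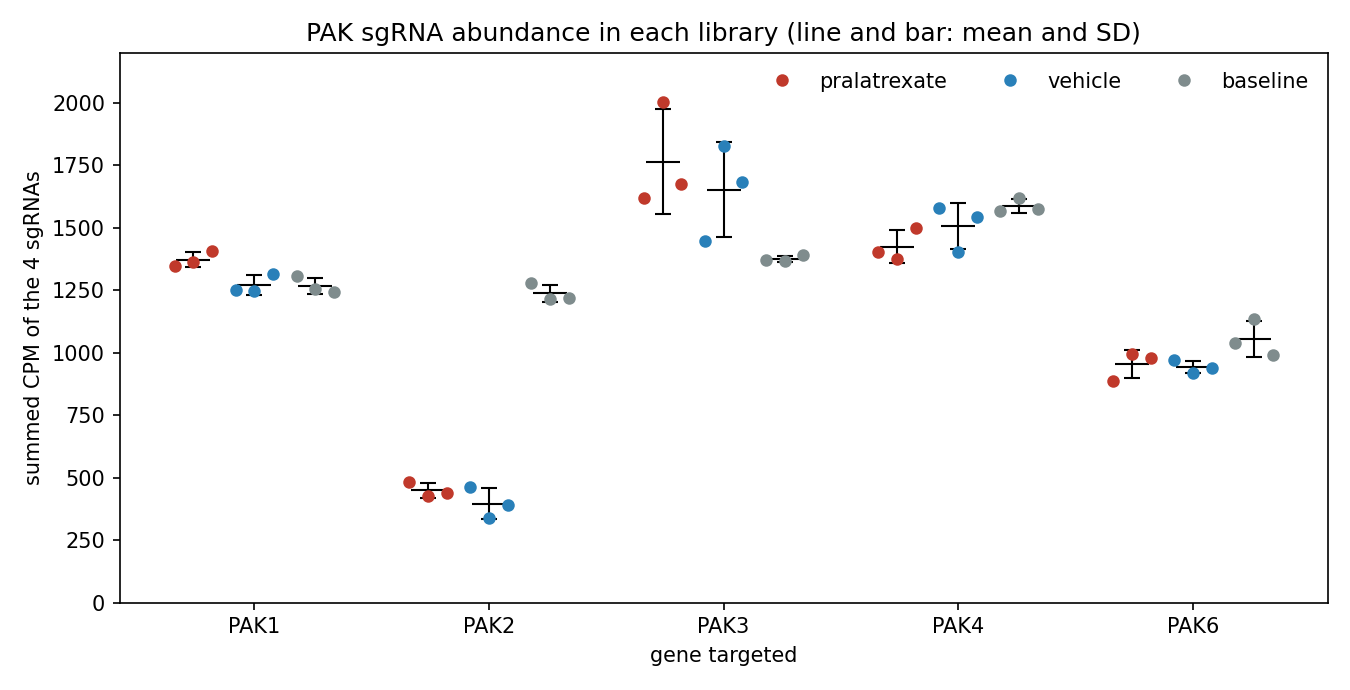
Summed CPM of the 4 sgRNAs of each PAK gene (vertical axis, from 0) in every library, grouped by gene, with pralatrexate, vehicle and baseline from left to right; points are libraries, lines and bars the mean and SD of 3 libraries. PAK2 lies between 338 and 485 in the 6 day 10 libraries and between 1217 and 1279 at baseline, and no other gene falls below 889.

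The order of the summed levels changed mainly through PAK2. From high to low it was PAK3, PAK4, PAK1, PAK6 and PAK2 with pralatrexate and with vehicle, and PAK4, PAK3, PAK1, PAK2 and PAK6 at baseline, which also exchanged PAK3 and PAK4. Neighbours whose libraries overlapped were PAK4 and PAK1 with pralatrexate, PAK3 and PAK4 with vehicle, and PAK1 and PAK2 at baseline. Levels of different genes here reflect how much of each sgRNA the pool held, so only their change between groups bears on the cells.

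All 4 PAK2 sgRNAs were lower at day 10, by unequal amounts. PAK2 sgRNA 1 (numbered in library order) had 99.9, 71.9 and 73.7 CPM with pralatrexate, 72.9, 76.5 and 88.0 with vehicle and 471, 479 and 452 at baseline. PAK2 sgRNA 2 had 77.1, 88.0 and 85.5 CPM with pralatrexate, 64.2, 47.8 and 83.2 with vehicle and 210, 162 and 174 at baseline. For both, each day 10 library lay below each baseline library. PAK2 sgRNA 3 had 260, 196 and 237 CPM with pralatrexate, 249, 171 and 166 with vehicle and 451, 396 and 432 at baseline. PAK2 sgRNA 4 had 47.8, 71.5 and 43.0 CPM with pralatrexate, 75.0, 42.8 and 52.4 with vehicle and 147, 179 and 160 at baseline. These also did not overlap baseline, and vehicle and pralatrexate overlapped for every one of the 4. The lowest count behind any of these values was 177 reads.

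The fitted log2 changes of vehicle over baseline for PAK2 sgRNAs 1 to 4 were −2.56 (95% interval −2.92 to −2.20), −1.48 (−1.96 to −1.01), −1.13 (−1.45 to −0.81) and −1.52 (−2.05 to −0.98). The intervals of sgRNA 1 and sgRNA 3 did not meet. For pralatrexate over baseline the changes were −2.51, −1.13, −0.88 and −1.59. With sgRNA 1 left out of the sum the PAK2 change of vehicle over baseline was −1.28, and with sgRNA 3 left out it was −2.02, an alternative chosen after the data were seen.

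**Figure D2:**
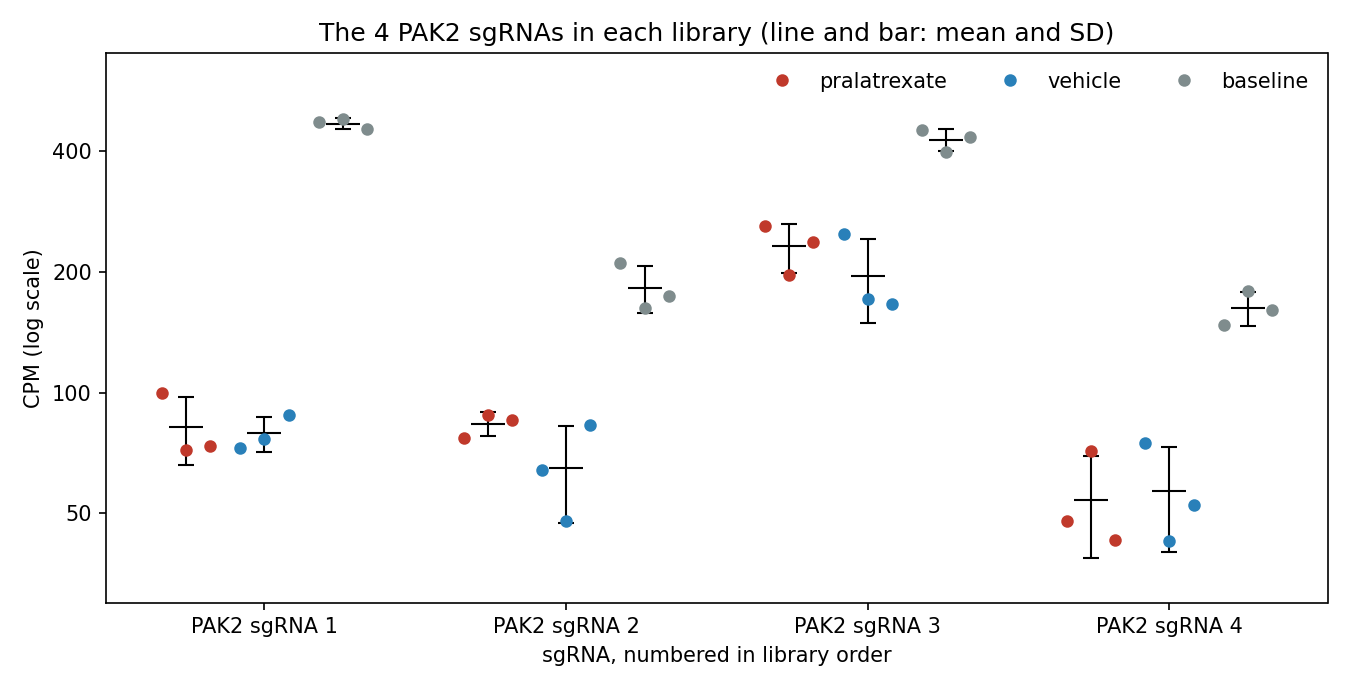
CPM of each PAK2 sgRNA (vertical axis, log scale) in every library, with pralatrexate, vehicle and baseline from left to right within each sgRNA; points are libraries, lines and bars the mean and SD of 3 libraries. All 4 sgRNAs lie lower in the 6 day 10 libraries than at baseline, with sgRNA 1 at 71.9 to 99.9 CPM against 452 to 479 and sgRNA 3 at 166 to 260 against 396 to 451.

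Set against its paralogues within each library, PAK2 was lower in every day 10 library than in every baseline library. The log2 summed CPM of PAK2 minus the mean of PAK1, PAK3, PAK4 and PAK6 was −1.41, −1.70 and −1.63 in the pralatrexate libraries, −1.49, −1.95 and −1.78 in the vehicle libraries and −0.03, −0.13 and −0.07 in the baseline libraries. At baseline PAK2 thus stood level with its family, and at day 10 the means were −1.58 ± 0.15 with pralatrexate and −1.74 ± 0.24 with vehicle, against −0.08 ± 0.05 at baseline (SD, n = 3 each). Against the group I paralogues PAK1 and PAK3 alone the means were −1.79 ± 0.17 with pralatrexate, −1.88 ± 0.31 with vehicle and −0.09 ± 0.03 at baseline. This difference does not depend on how libraries are scaled, because all 5 genes were read in the same library.

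**Figure D3:**
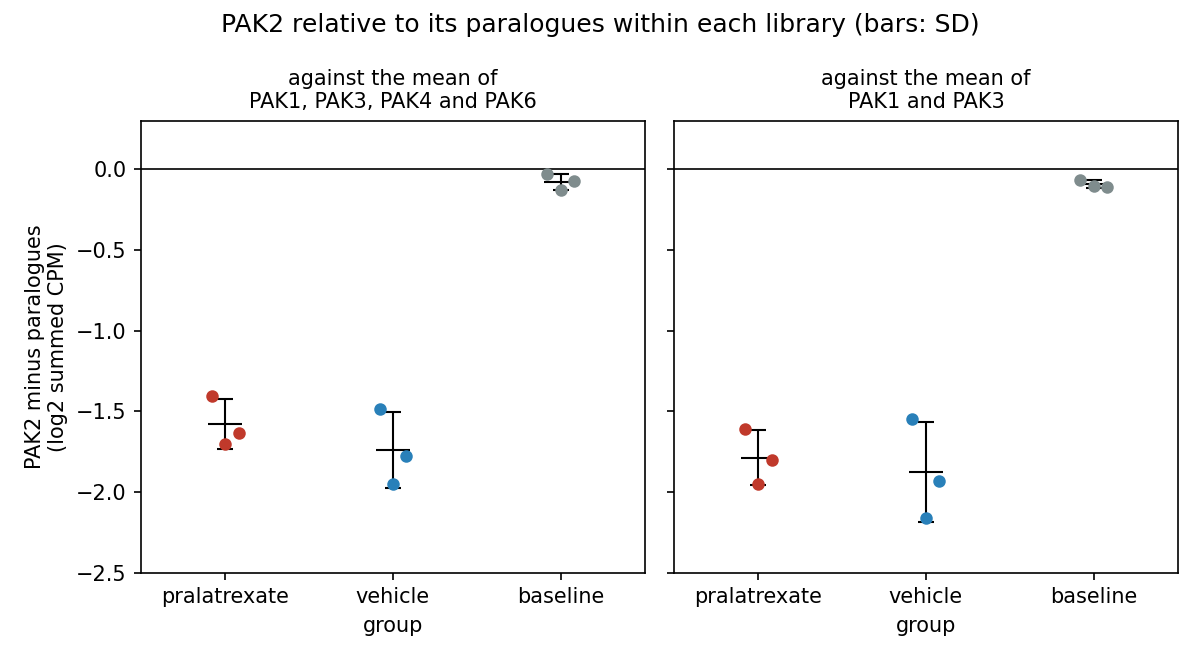
PAK2 minus the mean of its paralogues in log2 summed CPM (vertical axis) for each library by group, against 4 paralogues in the left panel and against PAK1 and PAK3 in the right panel; points are libraries, lines and bars the mean and SD of 3 libraries. Against 4 paralogues the pralatrexate and vehicle libraries lie between −1.95 and −1.41, and the baseline libraries between −0.13 and −0.03.

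The counts against baseline restate the values that the genes were chosen by and are no test of them. Of the 20 PAK sgRNAs, 4 had an FDR under 0.05 as lower in vehicle than at baseline, all of PAK2 (12.8% of all sgRNAs), and 1 as higher, PAK3 sgRNA 2 (6.26% of all). By gene these were PAK2 lower (20.6% of all genes) and PAK3 higher (17.2%), while DESeq2 added PAK6, and limma and rank aggregation had PAK2 alone. In pralatrexate against baseline, 7 sgRNAs were under that FDR as lower (13.1% of all) and 2 as higher (5.98%), and again PAK2 lower (21.2% of genes) and PAK3 higher (17.4%). DESeq2 and limma added PAK4 there, and rank aggregation had PAK2 alone. Beside the 4 of PAK2, the sgRNAs lower were PAK4 sgRNA 1 (−0.43), PAK4 sgRNA 4 (−0.48) and PAK6 sgRNA 1 (−0.38). Counted by libraries that did not overlap, 9 of the 20 sgRNAs were lower (19.6% of all) and 4 higher (15.9%) in vehicle than at baseline, and 2 genes, PAK2 and PAK6, were lower (24% of genes) and 1, PAK3, higher (23.5%). For pralatrexate and baseline these counts were 8 sgRNAs lower (19.4%), 2 higher (16.5%), 2 genes lower (PAK2 and PAK4, 25.8%) and 2 higher (PAK1 and PAK3, 25.4%). Nothing is read from these shares.

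Non-targeting sgRNAs, which cut no gene, give another reference. Over the 99 kept, their median log2 change of vehicle over baseline was 0.31, with a range of −0.05 to 0.67, while the median over all genes was 0.03. Relative to the non-targeting median, PAK1 stood at −0.31, PAK2 at −1.96, PAK3 at −0.05, PAK4 at −0.39 and PAK6 at −0.48. None of the 4 PAK2 sgRNAs fell within the non-targeting range, and 8 of the 16 sgRNAs of the paralogues did, among them 4 of 4 for PAK3 and 1 of 4 each for PAK4 and PAK6, where 58.9% of all targeting sgRNAs did. With libraries scaled on the non-targeting sgRNAs the median of all genes was −0.31 and 86.4% of genes passed as lower, and PAK1 (−0.33), PAK2 (−1.98), PAK4 (−0.41) and PAK6 (−0.50) were among them, while PAK3 stood at −0.07 in place of 0.27.

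Pralatrexate against vehicle asked whether loss of a PAK gene changed how cells fared under the antifolate. No PAK gene passed the test, edgeR's quasi-likelihood test with Benjamini-Hochberg adjustment over 763 genes. By gene, 0 of 5 passed in either direction, where 0.786% of genes passed as lower and 0.131% as higher. By sgRNA it was 0 of 20, where 0.0318% passed as lower and 0 of 3145 as higher. At an unadjusted p of 0.05 the counts were 2 of 20 sgRNAs (5.6% of all) and 0 of 5 genes (5.77% of all). DESeq2, limma on gene means and rank aggregation also called 0 of the 5.

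PAK2 had the highest fitted change of the 5, with a log2 fold change of pralatrexate over vehicle of 0.19 (95% interval −0.02 to 0.40, edgeR adjusted p = 0.844), or 1.14-fold, at place 756 of 763 from the lowest. Its libraries overlapped between the arms, and without each library in turn the value ran between 0.09 and 0.31. Same-numbered pralatrexate and vehicle libraries deviated together over all sgRNAs, and within these pairs PAK2 was higher with pralatrexate in 3 of 3, as was PAK2 minus its 4 paralogues. PAK1 was also higher in 3 of 3, PAK4 was lower in 3 of 3, and PAK3 and PAK6 were mixed. The share of all genes with 1 direction in every pair was not counted, so nothing is read from these counts. PAK2 was chosen for low vehicle values, which by itself tilts pralatrexate over vehicle upward. With the pairs as a block the PAK2 change was 0.19 (edgeR adjusted p = 0.627). A p that misses the threshold leaves changes of up to the bounds of that interval, 0.987-fold to 1.32-fold, possible. Of its sgRNAs, sgRNA 1 stood at 0.05, sgRNA 2 at 0.36, sgRNA 3 at 0.25 and sgRNA 4 at −0.07. Thus 3 of 4 were higher with pralatrexate, a count not particular to PAK2. It was also 3 of 4 for PAK1, PAK3, PAK6 and the non-member PAK7, and 1 of 4 for PAK4.

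PAK1 was the only one of the 5 genes whose libraries did not overlap between the arms, lying at 1349 to 1406 summed CPM with pralatrexate and at 1246 to 1316 with vehicle. Such a separation in the higher direction was seen for 3.15% of all genes. Its fitted change was 0.11 (95% interval −0.03 to 0.25, edgeR adjusted p = 0.844). PAK3 stood at 0.09 (−0.05 to 0.24), PAK4 at −0.08 (−0.21 to 0.05) and PAK6 at 0.02 (−0.13 to 0.17), with edgeR adjusted p values of 0.885, 0.885 and 0.975. The PAK3 value rested on pralatrexate 2, the shallowest library, without which it was −0.0072, and on vehicle 1, without which it was 0.0064. PAK7 stood at 0.05 (−0.10 to 0.19). In the order of sgRNAs 1 to 4, changes were 0.02, 0.17, −0.06 and 0.35 for PAK1, 0.46, −0.06, 0.17 and 0.09 for PAK3, −0.23, −0.02, 0.13 and −0.20 for PAK4, and −0.18, 0.06, 0.00 and 0.26 for PAK6.

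Both PAK sgRNAs with an unadjusted p under 0.05 were higher with pralatrexate, and they were the only 2 of the 20 with every pralatrexate library above every vehicle library (4.36% of all sgRNAs). PAK1 sgRNA 4 had 282, 288 and 374 CPM with pralatrexate and 257, 235 and 250 with vehicle, a log2 change of 0.35 with an edgeR adjusted p of 0.820. PAK3 sgRNA 1 had 134, 190 and 175 CPM with pralatrexate and 131, 125 and 106 with vehicle, a log2 change of 0.46 with an edgeR adjusted p of 0.857. The other 3 sgRNAs of each gene changed less, between −0.06 and 0.17 in both cases, and none had an unadjusted p under 0.05. Of all sgRNAs of each gene, 3 of 4 were above 0. PAK6 sgRNA 1 was the only one of the 20 with every pralatrexate library below every vehicle library (4.61% of all sgRNAs), at 247, 231 and 260 against 266, 283 and 289 CPM. All 20 lay within the range of the non-targeting sgRNAs, −0.43 to 0.47, as did 97.6% of targeting sgRNAs.

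**Figure D4:**
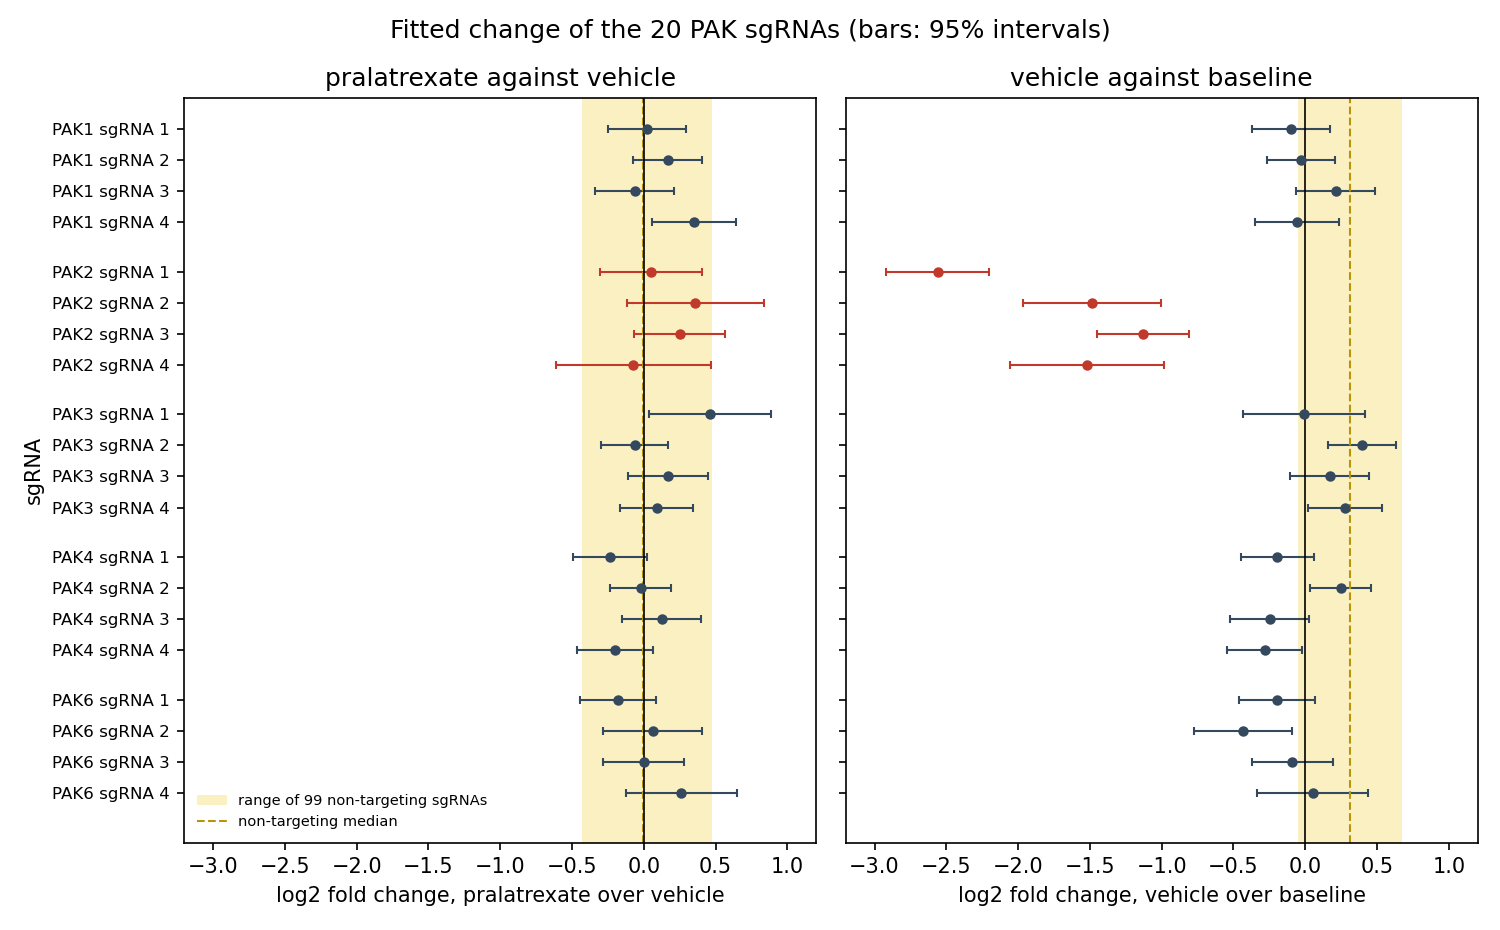
Fitted log2 fold change of the 20 PAK sgRNAs (horizontal axis) with 95% intervals, for pralatrexate over vehicle on the left and vehicle over baseline on the right; PAK2 is in red, the band is the range and the dashed line the median of 99 non-targeting sgRNAs. All 20 points lie inside the band on the left, and on the right the 4 PAK2 points lie between −2.56 and −1.13, all below it.

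Of the 762 other genes, those whose profile over the 9 libraries was closest to that of PAK2 were DOLK, PLK4, COASY, AURKB and MTOR, by the root mean square difference of log2 summed CPM after centring each gene on its baseline mean. The differences were 0.12 for DOLK, 0.15 for PLK4, 0.16 for COASY, 0.16 for AURKB and 0.17 for MTOR. Pearson correlations with PAK2 over the same libraries, which share depth and scaling, ran from 0.978 to 0.988. These genes also share with PAK2 a drop below baseline, which by itself raises such correlations. They were picked for closeness to PAK2 over these same libraries. Their correlations and their changes against baseline therefore restate that choice and are no test. DOLK makes dolichol phosphate for glycosylation, PLK4 duplicates centrioles, COASY completes coenzyme A synthesis, AURKB acts in chromosome segregation, and MTOR is a central growth kinase. Their log2 changes of vehicle over baseline were −1.59, −1.57, −1.49, −1.50 and −1.68. The paralogues were far from PAK2 by this measure, PAK6 at place 169, PAK4 at 201, PAK1 at 437 and PAK3 at 751 of 762. The PAK genes were chosen because PAK2 fell from baseline with vehicle while its paralogues did not. The places of the paralogues therefore restate that choice and are no test of it.

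Among genes around the PAKs, 0 of the 56 on 5 lists passed edgeR's quasi-likelihood test with Benjamini-Hochberg adjustment in pralatrexate against vehicle. At an unadjusted p under 0.05 there were 5, and DESeq2 called 1, limma 0 and rank aggregation 0. The lowest adjusted p in edgeR was that of MAP3K1, a MAP kinase kinase kinase on the list of GTPase-binding kinases, named after its value was seen. It averaged 1293 ± 91.3 summed CPM with pralatrexate and 1546 ± 44.8 with vehicle (SD, n = 3 each), a log2 change of −0.26 with all 4 sgRNAs lower (edgeR adjusted p = 0.0589). With scaling on the non-targeting sgRNAs the MAP3K1 change was −0.24 (edgeR adjusted p = 0.132). The lists held 6 kinases that phosphorylate group I PAKs, 8 kinases described as PAK substrates or as activated by PAKs, 15 other kinases that bind small GTPases, 3 regulators of Rac and 24 kinases of the germinal centre branch of the STE20 group, to which PAKs also belong. Median log2 changes of pralatrexate over vehicle ran from −0.01 for the substrates to 0.02 for the STE20 kinases, against 0.00 over all genes.

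The gene lists were drawn up with earlier results of these data known. Their counts and p-values against baseline are therefore a description and no independent test. In vehicle against baseline, 3 of the 6 upstream kinases fell and 1 rose, where 20.6% of all genes fell and 17.2% rose. The median of these kinases was −0.17, against 0.03 over all genes. With scaling on the non-targeting sgRNAs, which called 86.4% of all genes lower, 5 were lower and 0 higher. CDK1, the kinase that starts mitosis, had a log2 change of −3.36 and averaged 82.6 ± 40.4 summed CPM with vehicle and 837 ± 32.8 at baseline (SD, n = 3 each; edgeR adjusted p = 8.06e-17). PDPK1, which phosphorylates the activation loop of AGC kinases, fell by 0.94, with 3 of 4 sgRNAs lower, and stood at 636 ± 11.7 summed CPM with vehicle and 1221 ± 80.3 at baseline (adjusted p = 1.12e-13). AKT1, a survival kinase, fell by 0.48 (adjusted p = 1.25e-06). CSNK2A1, a catalytic subunit of casein kinase 2, rose by 0.34 (adjusted p = 8.36e-05), a change that was 0.00 when libraries were scaled on the non-targeting sgRNAs. CDK5 and JAK2 did not pass edgeR's test, at 0.15 for both, though DESeq2 called 5 of the 6 kinases, and on the non-targeting scale both were called lower, at −0.18 each.

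Of the 8 substrate kinases, 3 fell and 0 rose (20.6% and 17.2% of all genes), with a median of −0.08, and with scaling on the non-targeting sgRNAs 8 of 8 were lower. PLK1, a mitotic kinase, fell by 2.08 to 116 ± 23.5 summed CPM with vehicle, against 489 ± 65.9 at baseline, and AURKA, which acts at the spindle poles, fell by 1.29 to 230 ± 35.7, against 564 ± 23.4 (edgeR adjusted p = 9.72e-08 and 1.10e-06). ILK, an adhesion pseudokinase, fell by 0.18 (adjusted p = 0.0454), a call that was lost without any single baseline library and without vehicle 1 or vehicle 3, at adjusted p values up to 0.266. LIMK1, which carries PAK signals to the actin cytoskeleton through cofilin, stood at −0.04 and MAP2K1 at −0.12, and neither passed edgeR's test as scaled here, while on the non-targeting scale they were called lower at −0.38 and −0.45.

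The Rac regulators TRIO, KALRN and BCR stood at 0.08, 0.14 and −0.14, and 0 of 3 passed edgeR's test, with 1 at an unadjusted p under 0.05, 1 called by DESeq2, 1 by limma and 0 by rank aggregation. Among the 15 other GTPase-binding kinases 2 fell and 4 rose (20.6% and 17.2% of all genes), with a median of 0.10. The largest changes were those of MAP3K4, a MAP kinase kinase kinase (−0.74), CDC42BPG, of the myotonic dystrophy kinase family (−0.46), and TNK2, a Cdc42-associated tyrosine kinase (0.32). Among the 24 STE20 kinases 2 fell and 7 rose, again beside 20.6% and 17.2% of all genes, with a median of 0.10, led by MAP4K2 (−0.33), MYO3B (0.30) and STK26 (0.25). With scaling on the non-targeting sgRNAs 11 of the 15, 18 of the 24 and 3 of the 3 Rac regulators were called lower and 0 higher. On that scale TNK2, MYO3B and STK26 stood at −0.02, −0.03 and −0.09, so that their direction depended on the scaling, as did the split of calls over all genes, of which 45.5% were higher as scaled here and 0.303% on the non-targeting sgRNAs.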

How the data were processed

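The authors deposited a table of raw counts of reads per sgRNA, not normalized, in 9 libraries. The submitters' processing notes name Bowtie 1.0.0, and no source used here states how mismatches were handled or which program counted the reads. No molecular identifiers are mentioned, so PCR copies count as reads. The authors also deposited gene tables of fold changes and p-values from MAGeCK, which were not used. The members and gene lists were chosen with earlier results of these data known.

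A minimum of 30 reads, averaged over all 9 libraries, took out 7 of 3152 sgRNAs. All 20 PAK sgRNAs were kept. The 3145 sgRNAs left, PAKs included, were fitted with edgeR 4.0.16 in R 4.3.3 (quasi-likelihood test on a single factor for group, with TMM scaling and all libraries in 1 fit), and so were reads summed by gene over 763 genes. P-values are two-sided and adjusted by Benjamini and Hochberg over all sgRNAs or all genes (FDR, threshold 0.05). Fitted in common for all features, the coefficient of variation between libraries beyond counting noise was 13.2% by sgRNA and 6.35% by gene. Single genes or sgRNAs could vary more or less than that. The study's rank aggregation ranks sgRNAs against each other and was run as an alternative, on the edgeR p-values. The procedure was tested on simulated counts, with planted changes larger than those of the PAK genes between pralatrexate and vehicle. Whether changes as small as those would be called was not tested. Between libraries of the same group, counts varied 10.7 to 25.7 times more than sampling alone gives, so none was another library sequenced again. Whether the libraries came from separate cultures cannot be told from these counts.

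Same-numbered pralatrexate and vehicle libraries deviated together (correlations of 0.175, 0.198 and 0.188 for numbers 1, 2 and 3), so their numbers pair them, as read from the data. Baseline numbers did not pair, with correlations between −0.03 and 0.07. Alternatives were scaling on the non-targeting sgRNAs, other count minimums, DESeq2 1.42.0, limma 3.58.1 on gene means (prior count 2), only the compared groups, the replicate number as a block, leaving out each library, and leaving out each PAK2 sgRNA, the last added after the data were seen. The text names the PAK genes and the 20 sgRNAs of the 5, the 5 genes most like PAK2, and, of genes called in vehicle against baseline, each in the lists of upstream kinases, substrates and Rac regulators and the 3 with the largest change in the other lists. Coding exons and Cas9 sites came from GENCODE v44 on GRCh38. The build behind the library design was not given in the sources used here. Some list members are not reported here.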

Additional observations from a re-analysis of the deposited data

How the results depend on the processing

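The absence of a PAK call in pralatrexate against vehicle (0 of 5 genes, 0 of 20 sgRNAs) held under every alternative run. That includes the replicate number as a block, the fit for these paired libraries, which turned PAK6 sgRNA 3 to −0.0093 and changed no other direction; it gave 9 sgRNAs and 3 genes in pralatrexate against baseline, against 9 and 2. With each library left out in turn the value crossed 0 for PAK3 (−0.0072 to 0.17), PAK6 (−0.012 to 0.067), PAK1 sgRNA 1 (−0.057 to 0.14), PAK2 sgRNA 1 (−0.12 to 0.14), PAK2 sgRNA 4 (−0.32 to 0.17), PAK3 sgRNA 2 (−0.19 to 0.011), PAK3 sgRNA 4 (−0.11 to 0.23), PAK4 sgRNA 2 (−0.065 to 0.043), PAK6 sgRNA 2 (−0.039 to 0.14) and PAK6 sgRNA 3 (−0.11 to 0.16). Under non-targeting scaling the gene median was −0.31 in vehicle against baseline and −0.30 in pralatrexate against baseline. It called 4 PAK genes in either, against 2 with TMM, and 13 PAK sgRNAs in vehicle against baseline, against 5. In vehicle against baseline it turned PAK3 to −0.071, PAK1 sgRNA 3 to −0.12, PAK3 sgRNA 4 to −0.059, PAK4 sgRNA 2 to −0.086, TNK2 to −0.017, MYO3B to −0.032 and STK26 to −0.085. In pralatrexate against baseline it turned PAK1 to −0.21, PAK1 sgRNA 2 to −0.18, PAK1 sgRNA 4 to −0.030, PAK4 sgRNA 2 to −0.095 and PAK6 sgRNA 4 to −0.0060. With limma on gene means 1 PAK gene, PAK2, was called in vehicle against baseline, and with rank aggregation in each comparison with baseline. Rank aggregation also ended the calls of ILK, CSNK2A1, MAP3K4, CDC42BPG, TNK2, MAP4K2, MYO3B and STK26 in vehicle against baseline, while those of CDK1, PDPK1, AKT1, PLK1 and AURKA held in all 14 alternatives. PAK sgRNAs called in pralatrexate against baseline numbered 5 to 7 with 1 library left out, against 9, and were 5 without baseline 3 or without pralatrexate 2. PAK2 minus its paralogues in pralatrexate against baseline was −1.50, or −1.69 with PAK1 and PAK3 alone. PAK2 with sgRNA 1 left out stood at −1.06 in pralatrexate against baseline. The cause of these shifts was not tested. The values come from 3 libraries a group and a single line.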
